A study of Mus musculus with 27 samples.

Results

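The Rab GTPase genes of mouse Kupffer cells were taken as every gene with a name of the form Rab, a number and at most a letter and a further digit, among the genes to which regions of open chromatin had been assigned. This gave 51 Rab genes of 16038 genes with at least 1 region, and 242 of the 70300 regions, called windows here. Rab proteins are small GTPases that mark the membranes of a cell, each on its own set of organelles. Exchange factors load them with GTP, which lets them recruit effectors such as tethers and motors, and GTPase-activating proteins return them to the inactive state. In macrophages they direct uptake, phagosome maturation, lysosome delivery, recycling and secretion. Kupffer cells are the resident macrophages of the liver and use these routes to clear particles, lipoproteins and old red cells from blood.

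The cells were sorted as F4/80-high, Tim4-positive Kupffer cells from livers of C57BL/6J mice. One group had eaten a control diet and the other a diet that models NASH (nonalcoholic steatohepatitis, fatty liver with inflammation). The labels name no genetic change in either group and do not say whether libraries came from separate animals, so each p-value reflects library-to-library spread alone, possibly technical. Acetylation of histone H3 at lysine 27 (H3K27ac), a mark of active promoters and enhancers, was measured by ChIP-seq in 2 libraries per diet, and binding of the oxysterol receptor LXR, of the stress-induced factor ATF3 and of the acetyltransferase P300 was given as 1 list of reproducible sites per factor and diet. The windows were open chromatin of Tim4-positive cells on the control diet or on a list named for 20 weeks of the NASH diet, and the names of the NASH lists of LXR and P300 differ from it, so their time on the diet may differ.

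H3K27ac is given as normalised tags, that is tags per 10000000 tags of the library. The control libraries held 9468035 and 22615879 tags and the NASH libraries 18749728 and 19231109, and 3 tags, the count that a 0 allows, were worth 1.33 to 3.17 normalised tags. The median log2 change of all 11593 genes tested was -0.29 (NASH against control), so each log2 change of a gene is given relative to that median. Changes of windows are given relative to the median of windows, -0.26. Each p-value tests the change before that subtraction. With the deposited scaling the tested change was -0.64 for Rab31 (-0.35 as given here), 0.26 for Rab5a (0.55) and 0.40 for Rab8b (0.68). Of 15 Kupffer cell markers, all were tested and 6 fell (Adgre1, Cd163, Clec4f, Id3, Marco and Timd4), or 40% against 11.0% of all genes tested. The summed level of the 15 was 3291 and 3256 normalised tags in control and 2442 and 2228 in NASH. With TMM scaling 5 of them fell, without Id3 (limma adjusted p = 0.69), or 33.3% against 6.18% of all genes. Leaving out a library ended the calls of Id3 and Cd163. Summed markers of B cells were 107 and 105 against 36.3 and 28.1, of liver endothelium 200 and 141 against 108 and 93.1, of monocytes and neutrophils 582 and 482 against 453 and 456, of T and NK cells 118 and 126 against 163 and 149, of stellate cells 76.0 and 68.5 against 64.5 and 60.8, and of hepatocytes 35.9 and 29.6 against 41.1 and 37.96. Windows lay at 3 of 6, 7 of 9, 7 of 9, 4 of 9, 2 of 9 and 5 of 10 of these markers in that order, and no marker with a window was at 0 in every library. Single markers moved apart within these sums. Most of the T and NK cell sum was Klrb1c, with 112 and 122 against 143 and 121, where the diets overlapped (limma adjusted p = 0.57). Among monocyte and neutrophil markers Plac8 fell, from 301 and 193 to 123 and 98.3 (limma adjusted p = 6.7e-04), while Ly6c2 had 243 and 252 against 298 and 333 and rose with TMM scaling but not with the deposited scaling (limma adjusted p = 0.10, TMM 0.0063). The T cell marker Cd3d rose from 3.17 and 3.54 to 12.3 and 21.8 (limma adjusted p = 0.0095), a call lost without the second NASH library (0.24). Blk of B cells and Cdh5 and Stab2 of endothelium fell, and Apoa1 of hepatocytes rose with TMM scaling. The calls of Plac8, Cdh5 and Stab2 also ended when 1 library was left out (highest limma adjusted p 0.052, 0.12 and 0.30). Their part in the results was not tested. In these bulk samples a different share of cells and a different level per cell cannot be told apart.

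Summed over the windows of a gene, 37 Rab genes had enough tags to be tested. H3K27ac fell at 4 of them in NASH, Rab42, Rab39, Rab3a and Rab31, which is 10.8% of the tested Rab genes and compares with 11.0% of all genes tested (limma, adjusted p under 0.05). It rose at 0 of them, against 2.89% of all genes. An unadjusted p under 0.05 (limma, either direction) was found at 7 of the 37 Rab genes and at 3346 of all 11593 genes. The split depended on scaling. When libraries were scaled by TMM, which sets the bulk of genes to no change, 4 Rab genes rose (Rab5a, Rab6b, Rab8b and Rab19; all genes 7.06%) and only Rab42 fell (all genes 6.18%), and edgeR on the recovered tags called the same numbers, 4 and 1. The median log2 change of the tested Rab genes was 0.16 above that of all genes, and 26 of 37 lay above it. Both NASH libraries were above both control libraries at 6 Rab genes, 16.2% against 12.0% of all genes, and below both at 10, 27.03% against 46.0% of all genes.

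**Figure D1:**
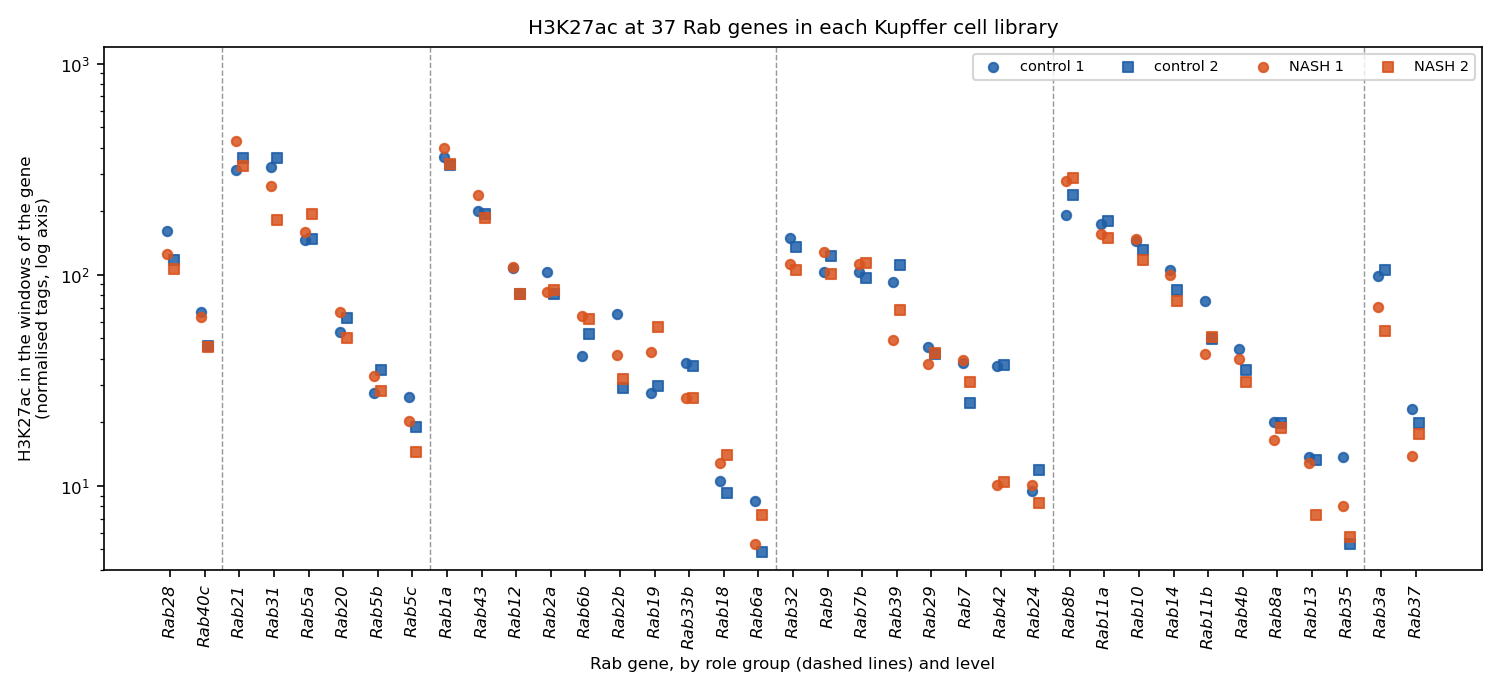
Normalised H3K27ac tags (log axis) summed over the windows of each of the 37 tested Rab genes in 2 control (blue) and 2 NASH (orange) libraries. From left to right the dashed lines separate cilium and other roles, early endosome, endoplasmic reticulum and Golgi, late endosome and lysosome, recycling endosome, and regulated secretion; Rab42 shows the widest gap between the diets.

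**Figure D2:**
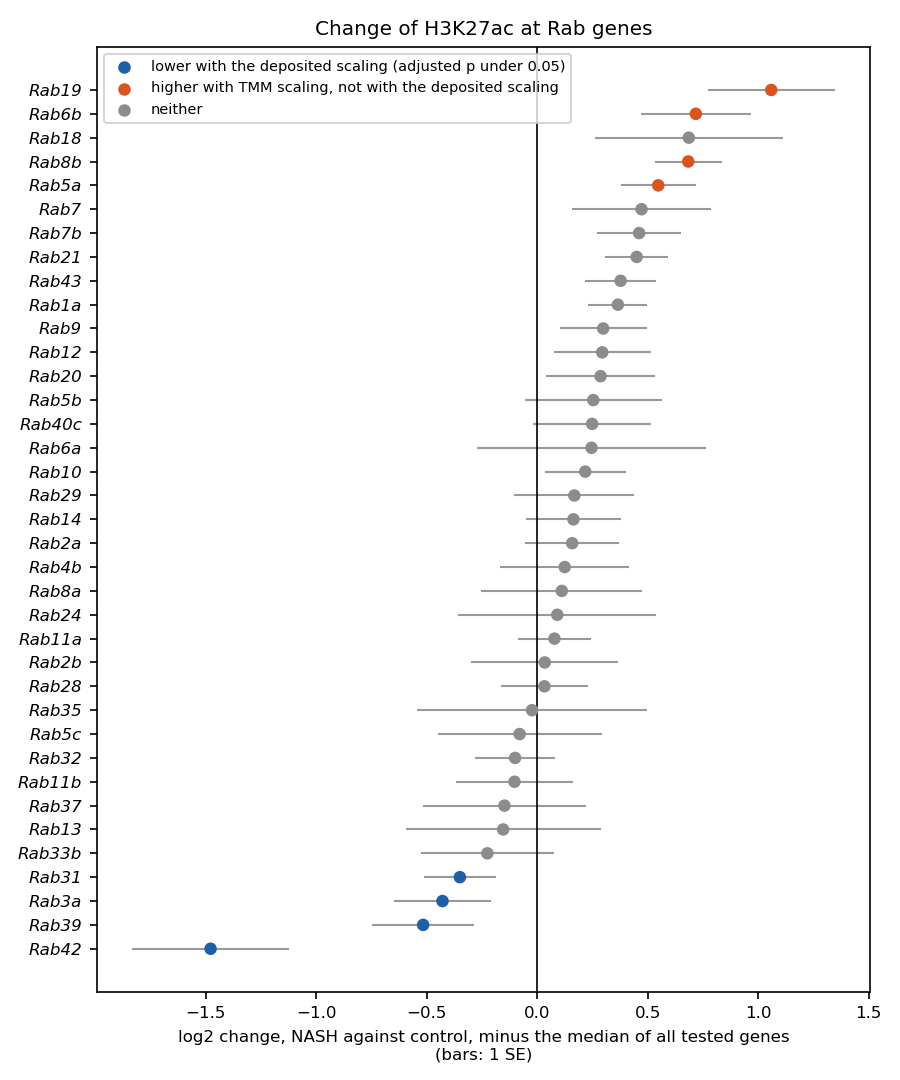
Log2 change of H3K27ac at each tested Rab gene in NASH against control, less the median of all tested genes, with 1 SE. Blue genes fell with the deposited scaling and orange genes rose with TMM scaling but not with the deposited scaling. Each call tests the change before the median is subtracted. Rab42 at -1.48 lies farthest from 0.

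Because the summed H3K27ac of 4 Rab genes fell with the deposited scaling, their promoters are shown, as RefSeq gives them (GRCm38.p6, the coordinates of mm10). Over promoter windows alone, within 1000 bp of a start, none of the 4 passed (limma adjusted p 0.10 to 0.59). Each sequence runs from 250 bases before to 50 after the start site, 5′ to 3′ on the strand of the gene. Capitals mark the bases that lie inside a deposited window, where the tags were counted. Rab3a has 2 listed starts, and the capitals of the second lie in the window that fell.
Rab42, chr4:132303307-132303606, minus strand: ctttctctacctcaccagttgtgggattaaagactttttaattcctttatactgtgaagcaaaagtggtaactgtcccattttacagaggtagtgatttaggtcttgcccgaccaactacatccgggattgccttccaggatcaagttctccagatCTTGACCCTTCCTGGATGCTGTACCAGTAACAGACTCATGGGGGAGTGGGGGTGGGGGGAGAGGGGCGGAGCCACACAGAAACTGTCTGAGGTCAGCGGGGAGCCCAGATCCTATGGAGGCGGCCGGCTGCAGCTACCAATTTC
Rab31, chr17:65772703-65773002, minus strand: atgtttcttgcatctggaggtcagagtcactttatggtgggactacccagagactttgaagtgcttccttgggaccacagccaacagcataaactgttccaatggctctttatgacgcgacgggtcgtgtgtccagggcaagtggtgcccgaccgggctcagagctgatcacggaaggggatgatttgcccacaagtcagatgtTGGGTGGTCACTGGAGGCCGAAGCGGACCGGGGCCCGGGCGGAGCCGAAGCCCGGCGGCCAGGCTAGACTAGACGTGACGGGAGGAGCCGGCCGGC
Rab39, chr9:53706183-53706482, minus strand: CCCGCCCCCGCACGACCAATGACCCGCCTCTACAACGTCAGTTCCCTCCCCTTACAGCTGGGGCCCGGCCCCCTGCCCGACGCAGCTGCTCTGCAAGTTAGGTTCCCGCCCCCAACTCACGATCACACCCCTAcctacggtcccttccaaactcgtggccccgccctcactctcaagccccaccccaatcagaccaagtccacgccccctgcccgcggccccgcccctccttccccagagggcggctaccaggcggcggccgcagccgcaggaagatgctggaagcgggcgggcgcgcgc
Rab3a, chr8:70754453-70754752, plus strand: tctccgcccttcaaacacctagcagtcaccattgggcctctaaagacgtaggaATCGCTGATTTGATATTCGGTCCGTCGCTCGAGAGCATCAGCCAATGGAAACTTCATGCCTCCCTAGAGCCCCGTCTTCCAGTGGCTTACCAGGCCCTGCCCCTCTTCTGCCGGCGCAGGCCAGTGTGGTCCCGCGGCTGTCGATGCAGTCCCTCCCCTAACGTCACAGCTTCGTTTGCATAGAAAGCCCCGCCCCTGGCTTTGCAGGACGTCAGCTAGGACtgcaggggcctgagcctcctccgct
Rab3a, chr8:70754852-70755151, plus strand: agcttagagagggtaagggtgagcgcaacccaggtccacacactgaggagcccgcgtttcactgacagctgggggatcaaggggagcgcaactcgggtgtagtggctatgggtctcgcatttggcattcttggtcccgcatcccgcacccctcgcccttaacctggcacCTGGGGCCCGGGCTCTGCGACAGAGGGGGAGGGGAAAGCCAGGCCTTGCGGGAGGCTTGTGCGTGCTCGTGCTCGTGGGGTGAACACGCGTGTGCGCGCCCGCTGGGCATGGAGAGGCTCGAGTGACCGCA
None of these 5 held a match to the motifs searched. These were the LXR element (AGGTCA repeated after 4 bases), the AP-1 site TGANTCA, the cAMP response element TGACGTCA and the E-box CACGTG, on both strands. Among all 32851 promoters of this length they matched 0.0152%, 7.81%, 1.79% and 7.15%. Promoters were listed for 43 of the 51 Rab genes, 55 in all, and 0, 2, 1 and 6 of these held them. The AP-1 matches were at Rab15 and Rab34, and the cAMP response element was at Rab5a. The E-box lay at Rab5a, Rab20, Rab21, Rab23, Rab24 and Rab27a.

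The late endosomal and lysosomal Rab genes held the Rab gene with the widest difference between diets. Rab42 (chromosome 4, 132300438 to 132303382), a little studied relative of Rab39 that has been placed on phagosomes, had 37.0 and 37.6 normalised tags in control and 10.1 and 10.4 in NASH. Both NASH libraries lay far below both control libraries. The means were 37.3 ± 0.438 and 10.3 ± 0.191 (SD, n = 2 each), a log2 change of -1.48 (SE 0.36; limma adjusted p = 0.0022, TMM adjusted p = 0.0024). Without the second NASH library, the limma adjusted p of Rab42 was 0.057.

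Of the 2 windows of Rab42, 1 passed the test. The window 2072 bp upstream of the start (chromosome 4, 132305328 to 132305528, intergenic), open chromatin in control only, had 29.6 and 31.4 normalised tags in control and 4.80 and 8.84 in NASH. That window fell (log2 change -1.80 relative to the median of windows, SE 0.39; limma adjusted p = 0.0043), and did so with each library left out in turn (adjusted p up to 0.047). The window at the start itself, whose bases are in capitals above, had 7.39 and 6.19 in control against 5.33 and 1.56, and did not pass (limma adjusted p = 0.35). Both windows held an LXR site in both diets, a P300 site in NASH only, and no ATF3 site. Over promoter windows alone, within 1000 bp of a start, the change of Rab42 did not pass (limma adjusted p = 0.41).

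Rab39 (chromosome 9, 53684110 to 53706232), which acts in phagosome acidification and autophagy, had 92.9 and 111 normalised tags in control and 49.1 and 68.1 in NASH. The groups did not overlap. Its log2 change was -0.52 (SE 0.23; limma adjusted p = 0.024; 0.12 with TMM scaling). None of its 7 windows passed alone. The call was lost without the second control library (adjusted p = 0.069), the first NASH library (0.22) or the second (0.071, all limma), and the change was then -0.28, -0.21 and -0.84.

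Other late endosomal Rab genes did not pass. Rab7, the main GTPase of late endosomes and lysosomes, had 38.04 and 24.8 normalised tags in control and 39.5 and 31.2 in NASH. Rab7b, which serves transport from late endosomes to the trans-Golgi network, had 104 and 96.9 against 113 and 113 (limma adjusted p = 0.57). Rab9, which returns mannose 6-phosphate receptors to the Golgi, had 104 and 122 against 128 and 101. Both NASH libraries lay above both control libraries at Rab7b, whereas the diets overlapped at the other two. Of the 9 genes in this group 8 were tested and 2 fell, where 11.0% of all genes tested did. With TMM scaling 1 of the 8 fell (all genes 6.18%). The median log2 change of the 8 tested genes was 0.13.

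Rab32, a GTPase of lysosome-related organelles that also limits bacteria in macrophages, had 150 and 136 normalised tags in control and 113 and 106 in NASH over 7 windows. The gene did not pass (limma adjusted p = 0.16), but an intronic window 2829 bp after the start (chromosome 10, 10555270 to 10555487, intron 1 of 2) fell. It had 23.2 and 19.9 normalised tags in control and 7.47 and 8.84 in NASH, with no overlap (log2 change -1.04, SE 0.39; limma adjusted p = 0.048, TMM 0.11). The call was lost whichever library was left out (adjusted p 0.061 without the second control, 0.17 without the first, 0.19 and 0.18 without the first and second NASH libraries). ATF3 and P300 sites lay there in both diets and an LXR site in NASH only.

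Among Rab genes of early endosomes and phagosomes, Rab31 fell. Rab31 (chromosome 17, 65651726 to 65772752), which acts between the trans-Golgi network and endosomes and on phagosomes, had the most windows of any Rab gene, 21. It had 323 and 359 normalised tags in control and 264 and 181 in NASH. Both NASH libraries were lower, the second more so than the first. The log2 change was -0.35 (SE 0.16; limma adjusted p = 0.013; 0.16 with TMM scaling), and without the second NASH library the limma adjusted p was 0.28. The change itself moved from -0.17 without the second control or the second NASH library to -0.55 without the first NASH library.

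Within Rab31, 1 window of intron 1 passed alone. The window 7579 bp after the start (chromosome 17, 65765073 to 65765274, intron 1 of 6) fell from 12.7 and 13.3 normalised tags to 2.67 and 4.16 (log2 change -1.42, SE 0.49; limma adjusted p = 0.046). Leaving out any library ended that call (adjusted p 0.10 to 0.20), and with TMM scaling it was 0.087. The window 42194 bp after the start had 39.1 and 52.2 against 25.1 and 19.8 (limma adjusted p = 0.048) and missed the size of change required. The windows 22758 and 53950 bp after the start had 10.6 and 7.96 against 1.60 and 2.08, and 10.6 and 7.07 against 1.60 and 2.08, and did not pass (limma adjusted p = 0.051 and 0.064). The window at the start had 33.8 and 34.1 against 39.5 and 17.2, so there the diets overlapped. Of the 21 windows, 13 held an LXR site in control and 14 in NASH, 6 and 15 an ATF3 site, and 12 and 15 a P300 site.

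Rab21, which acts in early endosomes and in the uptake of integrins, held the windows with the widest difference of any Rab gene. Summed over its 10 windows it had 314 and 357 normalised tags in control and 428 and 329 in NASH, which overlapped (limma adjusted p = 0.46). Upstream, the window 16946 bp before the start (chromosome 10, 115332437 to 115332637) had 0 and 0.88 normalised tags in control, from 0 and 2 tags, and 26.7 and 24.4 in NASH, from 50 and 47 tags. The next, 16668 bp before the start (chromosome 10, 115332159 to 115332359), had 2.11 and 3.10 in control and 37.9 and 40.0 in NASH. Both windows were nearly without the mark in both control libraries and carried it in both NASH libraries.

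Both of these windows rose, with log2 changes of 4.53 (SE 0.55; limma adjusted p = 2.9e-04) and 3.74 (SE 0.42; 2.0e-04), and rose with each library left out in turn (adjusted p up to 0.0097 and 0.014). Pooled over libraries, NASH had 41.0 times the normalised tags of control at the first (95% exact interval 11.0 to 343) and 13.9 times at the second (7.12 to 31.0), intervals that cover counting error only. Both were open chromatin in NASH only. An ATF3 site and a P300 site lay in the first in NASH only, both at the highest reproducibility score of 1000. That score was held by 66.1% of all ATF3 sites and 70.1% of all P300 sites in NASH. No LXR site lay in either window. The windows are intergenic, and by position the nearest protein-coding gene is Tmem19, 8202 and 8480 bp away, with Rab21 at 15118 and 14840 bp. Their assignment to Rab21 follows the authors' nearest start site.

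Nearer the gene no Rab21 window passed. The windows 350 and 11 bp before the start had 65.5 and 84.0 against 60.8 and 38.5, and 69.7 and 50.9 against 78.9 and 45.2, and neither passed (limma adjusted p = 0.17 and 0.99).

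Rab5a, the GTPase that drives fusion of early endosomes, had 146 and 147 normalised tags in control and 160 and 193 in NASH. Both NASH libraries were higher, but the change passed with TMM scaling and edgeR, not with the deposited scaling (log2 change 0.55, SE 0.17; limma adjusted p = 0.32, TMM 0.033, edgeR 0.024). Rab5a was outside the naming rule and was chosen after its values were seen. Its promoter is shown because it alone among the listed Rab promoters held the cAMP response element, a motif that ATF proteins are known to bind. Capitals here mark motif matches, the cAMP response element starting 28 bases before the start site and E-boxes starting 235 and 95 bases before it.
Rab5a, chr17:53478984-53479283, plus strand: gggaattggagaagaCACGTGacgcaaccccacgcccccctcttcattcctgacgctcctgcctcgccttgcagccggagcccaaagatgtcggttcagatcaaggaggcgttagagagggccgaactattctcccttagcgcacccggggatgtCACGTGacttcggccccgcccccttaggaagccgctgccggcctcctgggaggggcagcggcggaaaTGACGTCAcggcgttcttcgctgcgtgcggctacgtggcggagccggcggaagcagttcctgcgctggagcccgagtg
The window that holds the cAMP response element, 48 bp from the start, had a P300 site in NASH only and no ATF3 site in either diet. The adjoining window, 219 bp before the start, holds the first E-box and had LXR, ATF3 and P300 sites in both diets. It had 28.5 and 29.6 normalised tags in control and 36.3 and 56.7 in NASH (limma adjusted p = 0.20). Its paralogues Rab5b and Rab5c had 27.5 and 35.4 against 33.1 and 28.1, and 26.4 and 19.0 against 20.3 and 14.6, and did not pass.

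Of 10 Rab genes of recycling endosomes and the cell surface, 9 were tested and none passed with the deposited scaling, with a median log2 change of 0.11. Rab8b (chromosome 9, 66843609 to 66919705), which acts in delivery to the plasma membrane and in phagosome maturation, had 192 and 240 normalised tags in control and 279 and 287 in NASH. Both NASH libraries were higher (log2 change 0.68, SE 0.15; limma adjusted p = 0.083, TMM 0.0053). Its relative Rab8a had 20.1 and 19.9 against 16.5 and 18.7. Of the 13 windows of Rab8b, ATF3 sites lay in 4 in control and 10 in NASH.

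A window deep in intron 1 of Rab8b, 37005 bp after the start (chromosome 9, 66882595 to 66882806), rose. It had 13.7 and 22.99 normalised tags in control and 46.9 and 42.6 in NASH, with no overlap (log2 change 1.54, SE 0.31; limma adjusted p = 0.019, TMM 0.0073). The call was lost without the first control library (adjusted p = 0.066) or either NASH library (0.14 each). LXR, ATF3 and P300 sites lay there in both diets, and the enrichment score of P300, as the authors deposited it, was 27 in control and 71 in NASH. Over the whole lists the median P300 score was 30 in control and 47 in NASH, and over the sites in Rab windows 31 and 62.

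Rab11a, the main GTPase of recycling endosomes, had 173 and 180 normalised tags in control and 156 and 150 in NASH over 10 windows. Rab14, which links endosomes and the trans-Golgi network, had 106 and 84.9 against 100 and 75.4 over 9 windows. Neither passed (limma adjusted p = 0.42 and 0.75). Both had sites of all 3 factors, with P300 sites in 4 windows of Rab11a in control and 8 in NASH.

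**Figure D3:**
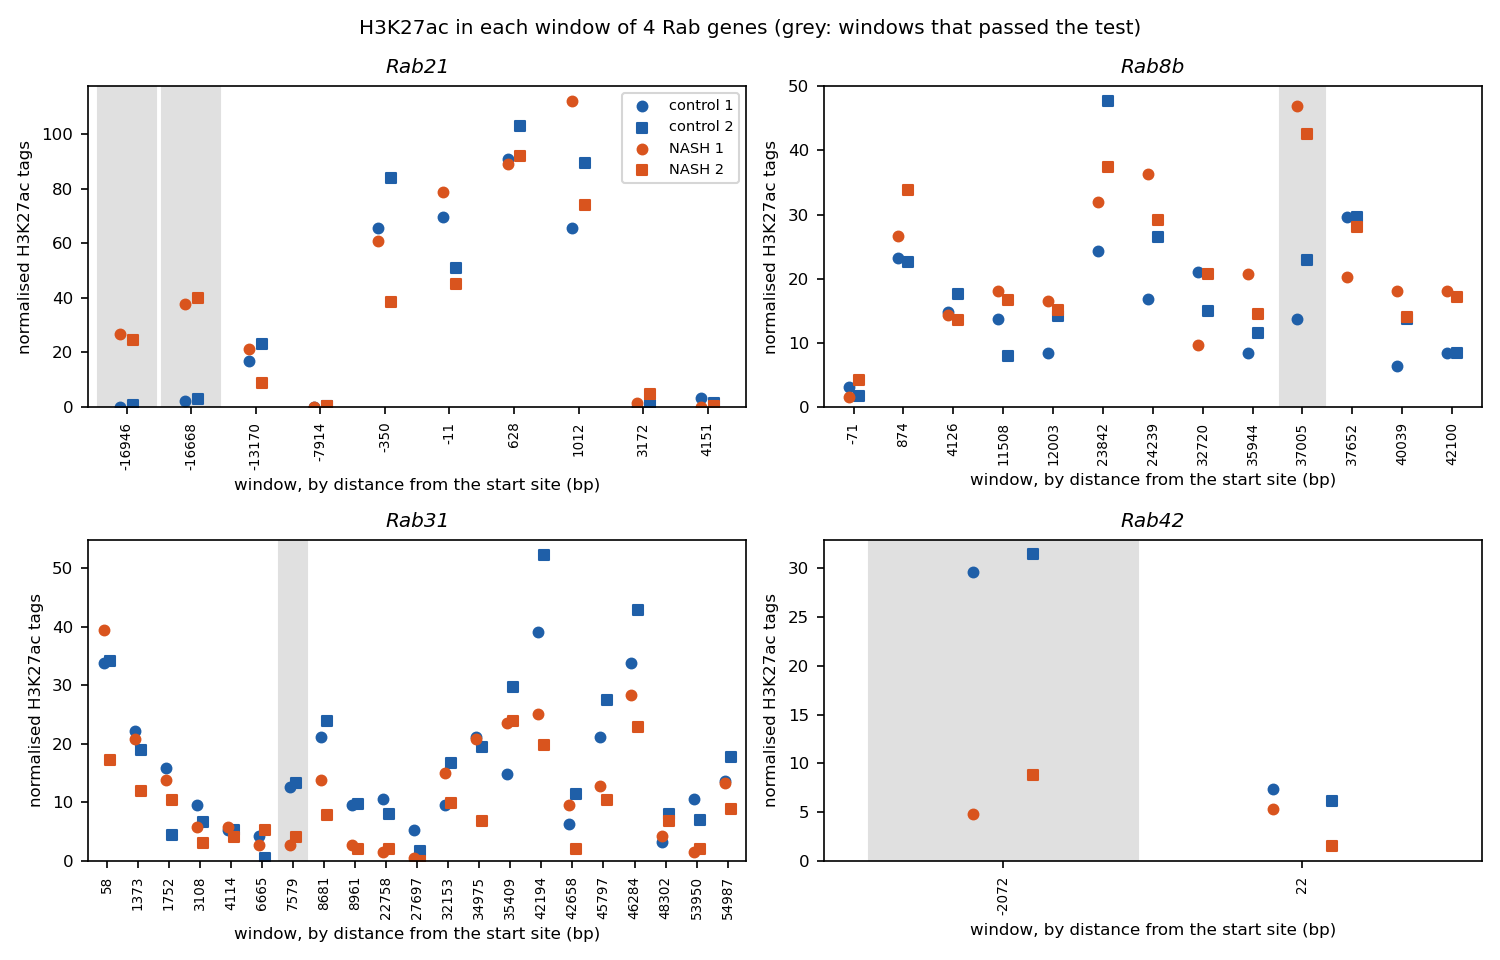
Normalised H3K27ac tags in each window of Rab21, Rab8b, Rab31 and Rab42, ordered by distance from the start site, in control (blue) and NASH (orange) libraries. Grey marks the windows that passed the test, among them the Rab21 windows 16946 and 16668 bp upstream, where the control libraries lie between 0 and 3.10.

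The Rab genes of the endoplasmic reticulum and Golgi had the highest median, 0.33, with 10 of 14 tested and none called with the deposited scaling. Rab1a, which drives transport from the endoplasmic reticulum to the Golgi, and Rab21 had the highest means of the Rab genes, 356.8 and 356.9 normalised tags. Rab1a had 361 and 332 normalised tags in control and 399 and 335 in NASH. Per kilobase of window it was the highest, at 198 normalised tags, ahead of Rab5a at 191, Rab9 at 180 and Rab21 at 168. One intronic window, 435 bp after the start, held most of it, with 242 and 215 against 286 and 223. Rab43, which acts in transport through the Golgi, had 200 and 195 against 238 and 186. At both genes the diets overlapped (limma adjusted p = 0.73 and 0.74).

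Rab19 and Rab6b, the other two that rose with TMM scaling, were outside the naming rule and were chosen after their values were seen. Rab19, a less studied Golgi-linked Rab, had 27.5 and 29.6 normalised tags in control and 43.2 and 56.7 in NASH (log2 change 1.06, SE 0.29; limma adjusted p = 0.078, TMM 0.0071). Both NASH libraries were well above both control libraries. Rab6b, a form of the Golgi GTPase Rab6 known mainly from neurons, had 41.2 and 52.2 against 64.0 and 61.9 (log2 change 0.72, SE 0.25; limma adjusted p = 0.26, TMM 0.037). Most of the tags lay in the window 3549 bp upstream, with 22.2 and 42.9 against 60.8 and 56.7. The promoter windows of Rab6b went the other way, with a log2 change of -1.28 that did not pass (limma adjusted p = 0.12). Rab6b was the only tested Rab gene with no LXR, ATF3 or P300 site in any window, and 6 of the 51 Rab genes had none.

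Rab genes of regulated secretion were the least marked. Only Rab3a and Rab37 of 7 were tested. Rab3a (chromosome 8, 70754703 to 70758608), best known from synaptic vesicle release, had 98.2 and 106 normalised tags in control and 70.4 and 54.1 in NASH, with no overlap. The change passed (log2 change -0.43, SE 0.22; limma adjusted p = 0.035), but not with TMM scaling (0.16), nor without the second control library (0.069), the first NASH library (0.065) or the second (0.36). Without the second control library the change was -0.27. Its window 442 bp after the start (chromosome 8, 70755021 to 70755221, intron 1 of 4), open in control only, fell from 32.7 and 31.8 to 11.2 and 13.5 (log2 change -1.06, SE 0.33; limma adjusted p = 0.021, TMM 0.059). That call was lost without the first NASH library (0.12) or the second (0.097). The window held an LXR site in both diets and no ATF3 or P300 site.

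The paralogues of Rab3a carried little of the mark and were not tested. Rab3b had 1.06 and 1.33 normalised tags in control and 0.53 and 0 in NASH, within the range a count of 0 allows. Rab3d, a GTPase of secretory granules, had 5.28 and 4.42 against 4.27 and 8.84. Rab37, which acts in secretory granules, had 10 windows with 23.2 and 19.9 in control and 13.9 and 17.7 in NASH and did not pass (limma adjusted p = 0.46). The 14 Rab genes that were not tested were Rab1b, Rab3b, Rab3d, Rab15, Rab17, Rab22a, Rab23, Rab26, Rab27a, Rab33a, Rab34, Rab36, Rab38 and Rab44. None of them exceeded 9.51 normalised tags in any library, and sites of at least 1 factor lay in windows of 9.

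Rab28, which is tied to the cilium of photoreceptors, had 15 windows that reached far from the gene, with 162 and 118 normalised tags in control and 126 and 106 in NASH. The gene did not pass (limma adjusted p = 0.41), but a window 182534 bp downstream of the start (chromosome 5, 41525055 to 41525259, intergenic) fell from 11.6 and 7.52 to 2.13 and 1.56. The log2 change was -1.61 (SE 0.56; limma adjusted p = 0.0497, TMM 0.078). The call was lost without the first control library (0.25), the first NASH library (0.11) or the second (0.23). LXR and ATF3 sites lay there in both diets and a P300 site in NASH only.

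Counted by window, 137 Rab windows were tested. Of these 3 rose (2.19% against 2.00% of all windows) and 5 fell (3.65% against 4.59%), where a call needed a limma adjusted p under 0.05 and an unshifted log2 difference no smaller than 1. With TMM scaling 5 rose (all windows 3.32%) and 1 fell (all windows 2.51%). The ones that rose with TMM scaling were those of Rab21 and Rab8b above and the upstream windows of Rab19 and Rab6b. Both NASH libraries lay above both control libraries at 28 Rab windows, 20.4% against 15.0% of all windows, and below both at 46, 33.6% against 38.1%.

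Sites of the 3 factors lay in Rab windows about as often as in windows at large, except for P300 in control. LXR sites lay in 130 Rab windows in control (53.7%; all windows 52.7%) and 142 in NASH (58.7%; all windows 57.7%). ATF3 sites lay in 54 in control (22.3%; all windows 21.4%) and 102 in NASH (42.1%; all windows 42.0%). P300 sites lay in 99 in control (40.9%; all windows 32.3%) and 142 in NASH (58.7%; all windows 58.9%). The P300 count in control was 76 when the site's centre had to lie inside the window. With an IDR score of at least 830 it was 67. The shares of all windows under these stricter rules were not counted. The deposited lists were longer in NASH, from 16109 to 38828 sites for ATF3, 44463 to 51709 for LXR and 25219 to 52628 for P300. The part of list length in these counts was not tested, and with 1 list per factor and diet there is no replicate to test over.

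The higher P300 share in control was wider at promoters. Within 1000 bp of a start, 50.6% of 85 Rab windows had a P300 site in control against 37.6% of all such windows, and farther away 35.7% of 157 against 30.1%. In NASH the shares near starts were 54.1% and 57.7%. A P300 site in NASH only was thus found in 12.9% of Rab windows near starts against 23.3% of all, and in 28.7% against 31.5% farther away. Windows near starts made up 35.1% of Rab windows and 29.5% of all windows.

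**Figure D4:**
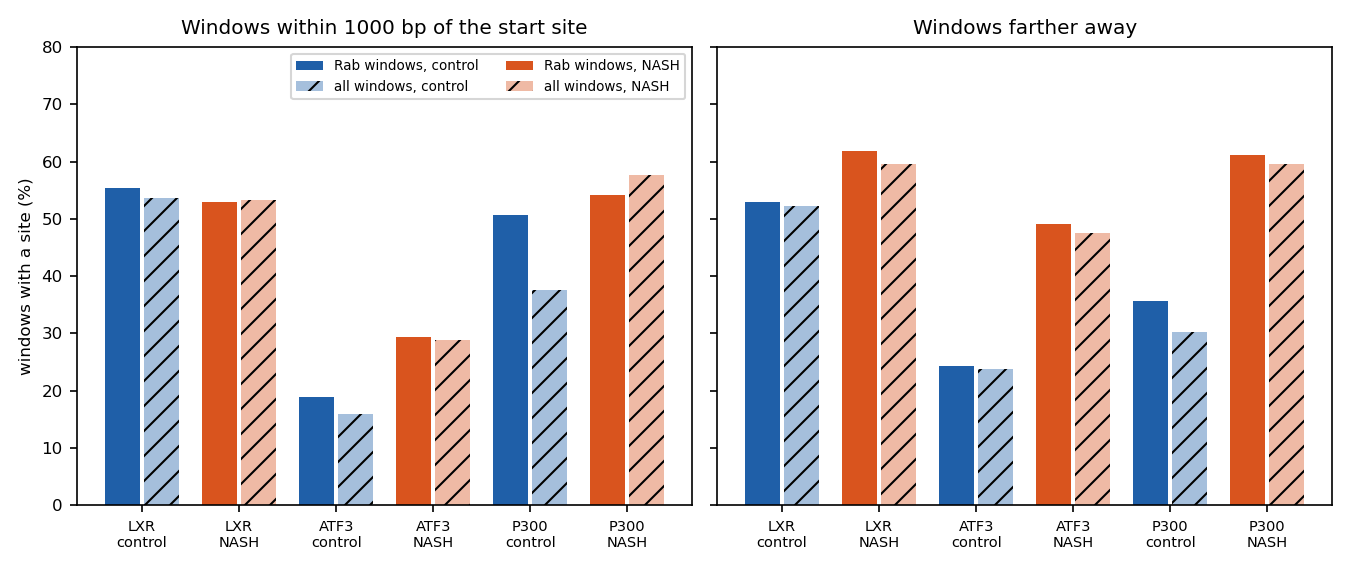
Share of windows with an LXR, ATF3 or P300 site in control (blue) and NASH (orange), for Rab windows (solid) and all windows (hatched), near to and far from start sites. The pairs lie close together except for P300 in control near starts, at 50.6% and 37.6%.

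Sites of all 3 factors in 1 diet were found for 34 of the 51 Rab genes. The share over all genes was not counted, so this number has nothing to be compared with. A single window held all 3 in control at 39 Rab windows (16.1%; all windows 14.6%) and in NASH at 74 (30.6%; all windows 32.8%), and 27 held them in both diets (11.2%; all windows 12.4%). By enrichment score, which the authors deposited for LXR and P300, the strongest sites were picked after their values were seen. For LXR in NASH it was the site 2940 bp after the start of Rab7b, with a score of 330 that 146 of 51709 sites exceeded. For LXR in control it was a site 182008 bp from Rab28, with a score of 332 that 247 of 44463 sites exceeded. For P300 it lay at Rab43, 61 bp before the start, in control (score 106) and in intron 1 of Rab8b, 32720 bp after the start, in NASH (score 202).

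Among tested Rab windows with an ATF3 site in NASH only, 37 in number, the median log2 change of H3K27ac was 0.20, with 1 raised and 1 lowered (2.70% each). Over all 8615 such windows it was 0.12, with 4.17% raised and 2.19% lowered. For the 39 with a P300 site in NASH only it was 0.21, against 0.07 over 9946 windows. The 11 tested Rab windows open in NASH only had a median of 0.38, with 2 raised (18.2%), and all such windows 0.34, with 13.6% raised. The 29 open in control only had a median of 0.25, with 2 lowered (6.90%), while all such windows had a median of -0.18 and 10.8% were lowered. These medians are descriptions and carry no test.

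The genes that load, unload and move Rab proteins were counted from lists of known names. Of 30 tested exchange factors 1 rose (3.33%, all genes 2.89%) and 2 fell (6.67%, all genes 11.0%). With TMM scaling 2 rose (6.67%, all genes 7.06%) and 1 fell (3.33%, all genes 6.18%). The list had a median log2 change of 0.01, where the median of all genes is 0 by construction. Dennd4c, an exchange factor for Rab10, rose from 44.4 and 38.03 normalised tags in control to 138 and 145 in NASH (log2 change 2.05, SE 0.22; limma adjusted p = 2.0e-05), and did so with each library left out (adjusted p up to 0.010). Its target Rab10, which acts in recycling and the delivery of transporters, had 145 and 131 against 147 and 117 and did not pass (limma adjusted p = 0.84). Dennd5a, which serves Rab39 and Rab6 pathways, fell from 143 and 115 to 85.3 and 81.1, but not with TMM scaling (limma adjusted p = 0.044, TMM 0.25). Rabgef1, the exchange factor of Rab5 known as Rabex-5, rose with TMM scaling and edgeR but not with the deposited scaling, from 57.0 and 44.7 to 91.2 and 73.3 (limma adjusted p = 0.062, TMM 0.0017, edgeR 7.8e-04). Without the first control library it passed with the deposited scaling too (limma adjusted p = 0.025).

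Of 33 tested GTPase-activating proteins none rose (all genes 2.89%) and 5 fell with the deposited scaling. With TMM scaling 3 rose (Rab3gap2, Tbc1d30 and Usp6nl) and 2 fell. The 5 that fell were 15.2% of the list, against 11.0% of all genes. With TMM the 3 that rose were 9.09%, against 7.06%, and the 2 that fell 6.06%, against 6.18%. Their median log2 change was 0.0047. Tbc1d4, also known as AS160, which holds Rab10 and its relatives inactive, fell from 66.5 and 50.0 normalised tags to 12.3 and 16.1 (log2 change -1.67, SE 0.32; limma adjusted p = 3.5e-04), with each library left out too (adjusted p up to 0.019). Tbc1d25, which acts on autophagy, fell from 44.4 and 47.3 to 14.4 and 19.2 (log2 change -1.12, SE 0.32; limma adjusted p = 0.0056). Both passed with TMM scaling as well. Tbc1d1, Tbc1d20 and Tbc1d2b had log2 changes of -0.14, -0.40 and -0.19 and passed with the deposited scaling only.

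Of 6 tested genes for prenylation and membrane cycling none rose (all genes 2.89%) and 2 fell, with a median of -0.25. The 2 that fell were 33.3% of the list, against 11.0% of all genes. With TMM scaling 1 fell, 16.7% against 6.18%. Chm, the escort protein that presents new Rab proteins for prenylation, fell from 26.4 and 30.5 to 11.2 and 13.5, with TMM scaling at 0.098 (limma adjusted p = 0.041). Of 38 tested effectors none rose (all genes 2.89%) and 3 fell with the deposited scaling, with a median of -0.12. The 3 that fell were 7.89% of the list, against 11.0% of all genes. These were Rilpl1, a partner of Rab8 and Rab10 on lysosomes and cilia, from 76.0 and 69.9 to 45.9 and 26.0 (limma adjusted p = 0.016), Plekhm1, a Rab7 effector, from 397 and 424 to 275 and 261 (0.0033), and Acap2, a Rab35 effector, from 205 and 196 to 124 and 117 (0.0059). Rilpl1 alone of the 3 passed with TMM scaling (0.028), where Ankfy1, a Rab5 effector, rose. Each was 2.63% of the list, where 6.18% of all genes fell and 7.06% rose with that scaling. Without 1 library at least, Dennd5a, Tbc1d1, Tbc1d20, Tbc1d25, Tbc1d2b, Chm, Rilpl1, Plekhm1 and Acap2 did not pass (highest limma adjusted p 0.060 to 0.58). The log2 change of Plekhm1 was -0.33 and -0.17 without the second control library, that of Rilpl1 was -0.77 and -0.46 without the second NASH library, and that of Tbc1d20 was -0.11 without the latter. That of Tbc1d1 was -0.05 without the second control library and -0.08 without the first NASH library.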

How the data were processed

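The authors deposited H3K27ac as a normalised signal, in which HOMER set each library to 10000000 tags (mm10, per the file headers). Bowtie2, HOMER and DESeq2 are named in the submitters' processing notes without a version or role. Sites of LXR, ATF3 and P300 were deposited as lists joining both libraries of a diet, each site carrying an IDR score (and an enrichment score except for ATF3), per the file headers. Multiplying each H3K27ac value by its library total gave whole tags within 0.02 for 100% of values. The 10 input samples and the peritoneal library were not used here. Replicate libraries differed by more than sampling noise (chi-square per degree of freedom 2.35 in control and 1.93 in NASH).

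Values were summed over the windows of each gene and tested on log2(value + 1) with limma 3.58.1 in R 4.3.3, after the filterByExpr filter of edgeR 4.0.16 on the recovered tags (11593 genes, 35947 windows), with Benjamini-Hochberg adjustment over all of them. A site counted where it shared at least 1 bp with a window. Scripts were tested on simulated data. Fold changes on this scale understate those of low genes. Named Rab genes were those called, those with a called window, the 5 highest, the 5 with most windows (ties kept), up to 8 with sites of all 3 factors, and same-number paralogues of called genes. Rab5a, Rab5b, Rab5c, Rab6b, Rab7, Rab8a, Rab9, Rab10 and Rab19 are outside that rule and were chosen after their values were seen. Members, lists and rules were chosen with earlier results of these data known. Alternatives tried were other pseudocounts, TMM scaling, no filter, edgeR, a replicate block, promoter windows only, each library left out, the site's centre, and an IDR score of at least 830. Promoters came from RefSeq (GRCm38.p6). Some genes that the list counts include are not reported here by name.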

Additional observations from a re-analysis of the deposited data

How the results depend on the processing

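The count of Rab genes that fell was 4, where 1278 of all 11593 genes did. It was 1 with TMM scaling (all genes 717), 1 with edgeR (747) and 0 with promoter windows only (294 of 8644). Without the filter on low values it was 0. The count that rose was 0 (all genes 335), and 4 with TMM scaling (819) and with edgeR (838). The count of Rab windows that rose was 3, where 720 of all 35947 windows did, and 5 with TMM scaling (1193) and with edgeR (1357). The count that fell was 5 (all windows 1651). It was 1 with TMM scaling (902), 2 with edgeR (1130) and 2 with a pseudocount of 0.5 (1418). With a library left out, which leaves 1 library in a group, the counts moved over all genes and windows as well as at Rab genes. Without the filter limma called 0 of 16038 genes and 0 of 70300 windows, while 3303 and 10809 had an unadjusted p under 0.05 (11 Rab genes, 34 Rab windows), and the cause was not tested. Over promoter windows only, 2 of 33 Rab genes and 1774 of all 8644 genes had an unadjusted p under 0.05 (limma). TMM scaling moved the median change of all genes from -0.29 to -0.01, and edgeR called 838 genes higher and 747 lower.

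The deviations of same-numbered libraries had a correlation of 0.0322 over 11593 genes. With 2 libraries per diet this cannot show whether the numbers pair the libraries. With the replicate block, 2 of 37 Rab genes rose (Rab8b and Rab19) and 4 fell, where 493 and 2263 of all 11593 genes did. Of 137 Rab windows 4 rose and 9 fell, where 1053 and 2837 of all 35947 windows did. Some changes turned direction. With promoter windows only, Rab14 had -0.0026, Rab32 0.23 and Rab6b, which rose with TMM scaling and edgeR, -1.28. With a library left out, Rab11a ranged from -0.048 to 0.22, Rab28 from -0.086 to 0.16 and Rab37 from -0.40 to 0.088. Site counts per list stayed within 1.5 times under both alternatives. The first control library, with 9468035 tags, sets the coarsest step.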
